A study of Macaca mulatta with 2 samples.

Results

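The cytosolic ribosomal protein genes encode the protein components of the ribosome of the cytoplasm, named RPL for the large subunit and RPS for the small subunit. They were taken from the gene names on the array: RPL or RPS followed by a number, with an optional A, X, L or Y1 and nothing after it, together with RPLP0, RPLP1, RPLP2 and RPSA. Ribosomal protein kinases and names with a pseudogene suffix were thereby left out. This gave 82 genes of 21509 gene names on the array, 49 of the large and 33 of the small subunit, read by 214 probes.

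Messenger RNA was measured on 2 single-colour oligonucleotide arrays hybridised with Cy3-labelled RNA from primary Sertoli cell cultures of the rhesus macaque, *Macaca mulatta*. Sertoli cells are the nurse cells of the seminiferous tubule, on which germ cells depend. The pubertal culture came from testes of males aged 18 to 22 months whose puberty was induced with gonadotropin-releasing hormone (GnRH), infused at 0.15 µg/min for 2 min with an interval of 3 h through an indwelling catheter for 4 to 5 weeks. The infant culture came from testes of males younger than 3 months, with no GnRH treatment given in the labels. Follicle-stimulating hormone (FSH, 5 ng/ml) and testosterone (100 nM) were added to both for 12 h, so neither is an untreated culture. Each group had 1 array, the labels do not say how many animals a culture held, and no difference below carries a test. Age, GnRH, animal and culture cannot be told apart. The array is a human design, so every value rests on monkey RNA bound to a human probe.

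The ribosome takes up most of its proteins in equal amounts, and their messenger RNAs are among the most abundant of a growing cell. In mammals these messages share a stretch of pyrimidines at the start, the 5′ terminal oligopyrimidine motif, through which their translation is set by nutrient and growth factor signals. Some subunit proteins have paralogues with a narrow tissue pattern, several of them known from testis or muscle. Sertoli cells divide in the infant testis and stop dividing around puberty, when they mature.

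Values are log2 signals minus the 75th percentile of the gene spots on the same array, and differences are pubertal minus infant. A gene's value is the mean of its probes that were well above background on both arrays. The error given with a difference comes from the scanner software's error model. It covers the spots, not the culture or the animal. The 75th percentile was 406.7 intensity units for the pubertal culture and 382.4 units for the infant culture. Of the gene spots, 54.9% and 54.8% were well above background on the pubertal and infant arrays, and none was saturated. Over the 14243 genes measured on both arrays, values correlated across genes with r = 0.956. Genes are not independent replicates, so this is a description of the arrays. Of the Sertoli cell markers, 12 of 12 were measured on both arrays, with a summed signal of 250924 units in the pubertal and 91122.5 units in the infant culture. The brightest probe of transferrin, TF, made up much of the pubertal sum (126892 units, and 13117 units in the infant culture), and the FSH receptor FSHR was dim, with 42.3 units in pubertal and 23.0 units in infant cells. Sums over different probes cannot be set against each other between marker lists.

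Relative to the 75th percentile, nearly the whole set of ribosomal protein genes had lower signals in the pubertal culture by a modest and similar amount. Of the 82 genes, 81 were measured on both arrays, and 79 of these 81 had a difference below 0, where 54.2% of all genes did. The median difference of the 81 genes was -0.51 (1.43-fold lower), with quartiles of -0.65 and -0.35. Over all 14243 genes the median was -0.06, with quartiles of -0.42 and 0.33. At least 1.5-fold lower were 31 of the 81 genes, where 16.8% of all genes were. At least 1.5-fold higher was 1 gene, RPL39L, where 15.0% of all genes were. None of the 81 reached 2-fold in either direction. Of all genes, 6.32% were at least 2-fold lower, and 7.32% were higher by 2-fold or more. The direction is that of the members against all other genes. Scaled on the spike-in control probes in place of the 75th percentile, every difference moved up by 0.94, and the median became 0.43 for the ribosomal protein genes and 0.88 for all genes. With quantile normalization the medians were -0.20 and -0.05, and with loess normalization -0.27 and 0.02, so the ribosomal protein genes lay below the rest under each of these scalings. In bulk cultures, a different mix of cells and a different amount of RNA per cell cannot be told apart.

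A share of signal within an array does not depend on scaling between arrays. The 214 spots of these genes, 0.417% of the gene spots, carried 12.0% of the summed gene signal in the pubertal culture and 13.9% in the infant culture. For the large subunit the shares were 7.17% pubertal and 8.45% infant. For the small subunit they were 4.83% pubertal and 5.44% infant. Both subunits thus took a smaller part of the signal on the pubertal array.

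Markers of other cell types also differed between the cultures. The germ cell list had 20 genes on the array, of which 6 were measured on both arrays and 5 of those 6 were at least 2-fold higher in the pubertal culture. Another 4 germ cell markers were detected in the pubertal culture alone and 1 in the infant culture alone. The summed detected signal of the list was 14452 units in the pubertal and 6804 units in the infant culture. The brightest probe of UTF1 made up much of both sums, with 6382 units pubertal and 4125 units infant. UTF1 had a difference of only 0.24, and the other 5 genes measured on both arrays had differences from 1.48 to 4.72. STRA8, PIWIL1, NANOS2, PRM2, TNP1, TNP2, ACRV1, ODF1 and SPATA19 were well above background on neither array. Smooth muscle and peritubular markers were measured for 9 of 9 genes, 6 of them at least 2-fold higher, with a summed signal of 237636 units in the pubertal and 120988 units in the infant culture. Leydig cell markers were measured on both arrays for 6 of 7 genes, 3 of them at least 2-fold lower and 3 above 0. Those above 0, HSD3B2, INSL3 and HSD17B3, had differences from 0.25 to 0.41. The summed signal was 19914 units in the pubertal and 58522 units in the infant culture. STAR made up much of the infant sum, with 2158 units pubertal and 38384 units infant. The macrophage sums were 1935 units pubertal and 399.7 units infant, and the endothelial sums 1400 units pubertal and 628.5 units infant. The part of these cells in the lower ribosomal protein signals was not tested.

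**Figure D1:**
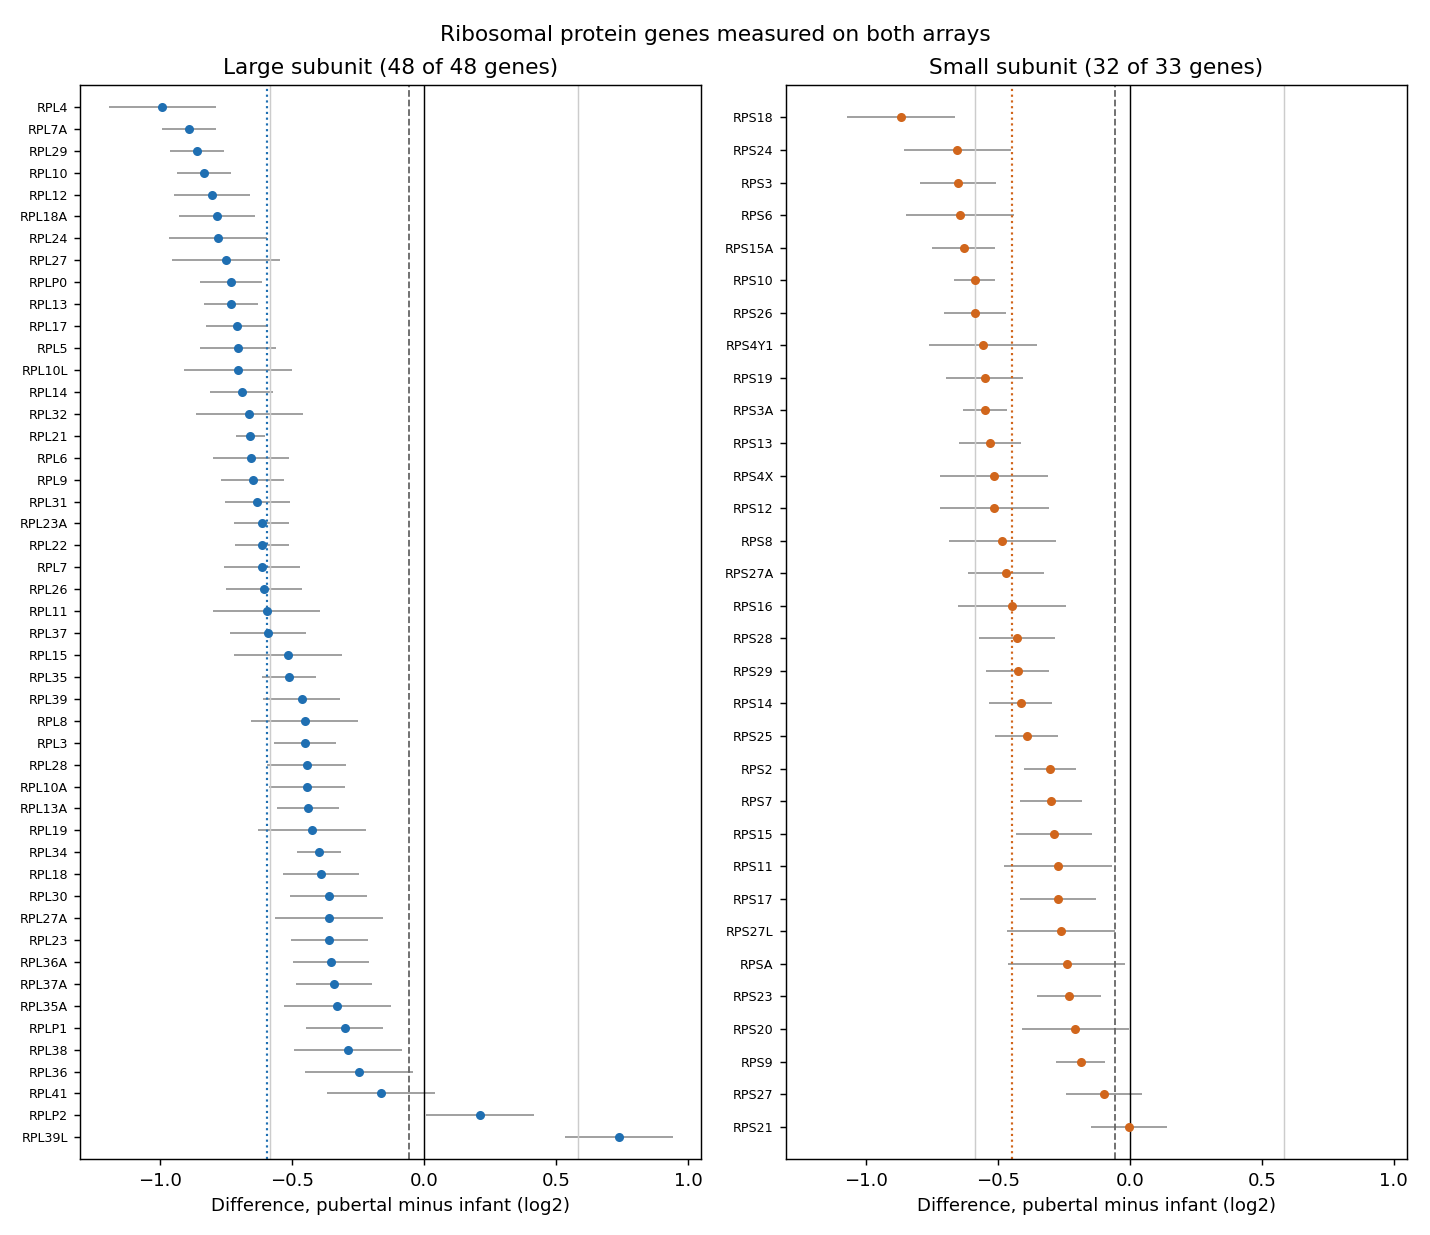
Difference between the pubertal and the infant array (log2, horizontal axis) for the 48 large subunit genes (left) and 32 of the 33 small subunit genes (right) measured on both arrays, ordered by size. Points are gene values scaled on each array's 75th percentile, bars the error from the scanner's error model, the dotted line the median of the subunit (-0.59 and -0.45), the dashed line the median of all genes (-0.06) and the grey lines a 1.5-fold difference. Except for RPL39L and RPLP2 every point lies left of 0, and on the spike-in scale, where 0.94 is added to every difference, 80 of the 81 genes measured would lie right of it.

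Of the 6 lowest genes, 5 were of the large subunit, which holds 48 of the 81 genes measured. RPL4, a protein with a loop that reaches into the exit tunnel of the nascent chain, had a value of 6.06 in the pubertal and 7.05 in the infant culture. Its difference of -0.99 ± 0.20 (1.99-fold lower, scanner error, n = 1 array each, 1 probe) was the lowest of the set. RPL7A, also of the large subunit, measured 5.75 in pubertal and 6.64 in infant cells, a difference of -0.89 ± 0.10. Its 4 probes ran between -1.03 and -0.63. RPL29, a small basic protein of the large subunit that also binds heparin, stood at 5.46 in pubertal and 6.32 in infant cells, and its 4 probes lay between -1.06 and -0.65. RPL10, which joins the large subunit late in the cytoplasm and is needed for subunit joining, measured 6.84 in the pubertal and 7.67 in the infant culture (-0.83 ± 0.10). That value rests on its 4 bright probes, and taking in its dim ones, with no filter or the weaker detection flag, moves it to -0.12. RPL12, at the base of the stalk that receives elongation factors, measured 7.48 in the pubertal and 8.29 in the infant culture (-0.80 ± 0.14). RPS18, a protein of the head of the small subunit, was the only small subunit gene among the 6 lowest, at 7.29 in the pubertal and 8.15 in the infant culture (-0.87 ± 0.20). The errors of these 6 genes overlap, so their order is not resolved. On the spike-in scale RPL4 stays below 0, and the other 5 turn to values between 0.05 and 0.13. The control probes behind that scale had raw differences from -1.14 to -0.47, so these signs are not resolved.

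The upper end held RPL39L, RPLP2, RPS21, RPS27, RPL41 and RPS9. RPL39L, described with the paralogues below, and RPLP2 were the 2 genes above 0. RPS21, a short protein of the small subunit, measured 4.47 on both arrays, a difference of -0.00 ± 0.14. RPS27, a zinc-binding protein of the small subunit, measured 8.39 in the pubertal and 8.49 in the infant culture (-0.10 ± 0.14). RPL41, the shortest protein of the ribosome, measured 8.14 in pubertal and 8.30 in infant cells (-0.16 ± 0.20). RPS9, at the entry of the messenger RNA channel, measured 4.34 in pubertal and 4.53 in infant cells (-0.19 ± 0.09). For RPS21, RPS27 and RPL41 the difference was no larger than its error.

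The stalk proteins did not move as a block. RPLP0, RPLP1 and RPLP2 form the acidic stalk of the large subunit, with RPLP0 as the base that holds dimers of the other proteins. RPLP0, often used as a reference gene in PCR, measured 8.34 in the pubertal and 9.07 in the infant culture, and its 3 probes gave differences between -0.74 and -0.72. RPLP1 measured 9.02 in the pubertal and 9.32 in the infant culture (-0.30 ± 0.14), with probes at -0.46 and -0.14. RPLP2 measured 8.75 in the pubertal and 8.53 in the infant culture (0.21 ± 0.20), which is close to its error and rests on 1 probe. The base of the stalk thus lay lower in the pubertal culture by more than the error, relative to the 75th percentile, and RPLP2 did not.

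Of the genes given here for roles outside protein synthesis, or as common references, RPL13A and RPSA lay above the set's median of -0.51. The others lay below it. RPL5 and RPL11, which with the 5S RNA form a particle that can bind and block MDM2, had differences of -0.71 ± 0.14 and -0.60 ± 0.20. The RPL5 probes gave -1.06 and -0.35, the brighter one the smaller difference. RPL5 measured 5.32 in the pubertal and 6.03 in the infant culture, and RPL11 7.67 in the pubertal and 8.26 in the infant culture. RPS6, the substrate of the growth-regulated S6 kinases, measured 8.05 in pubertal and 8.70 in infant cells (-0.64 ± 0.20). RPS3, a neighbour of RPS9 in that channel that also takes part in DNA repair, measured 6.40 in pubertal and 7.05 in infant cells (-0.65 ± 0.14). RPL13A, which also takes part in silencing inflammatory messages, measured 7.84 in pubertal and 8.28 in infant cells, and its 3 probes lay between -0.46 and -0.40. RPS19, mutated in Diamond-Blackfan anaemia, measured 7.11 in pubertal and 7.66 in infant cells (-0.55 ± 0.14). RPL32, a common normalisation gene, measured 8.21 in pubertal and 8.87 in infant cells (-0.66 ± 0.20). Its only probe lay in an area of the slide where neighbouring spots were disturbed. RPSA, the laminin receptor precursor and a small subunit protein, was read by 1 dim probe designed to a cDNA clone, with 101.8 units in pubertal and 112.9 units in infant cells (-0.24 ± 0.22). Signals this low give a weak reading of the gene.

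**Figure D2:**
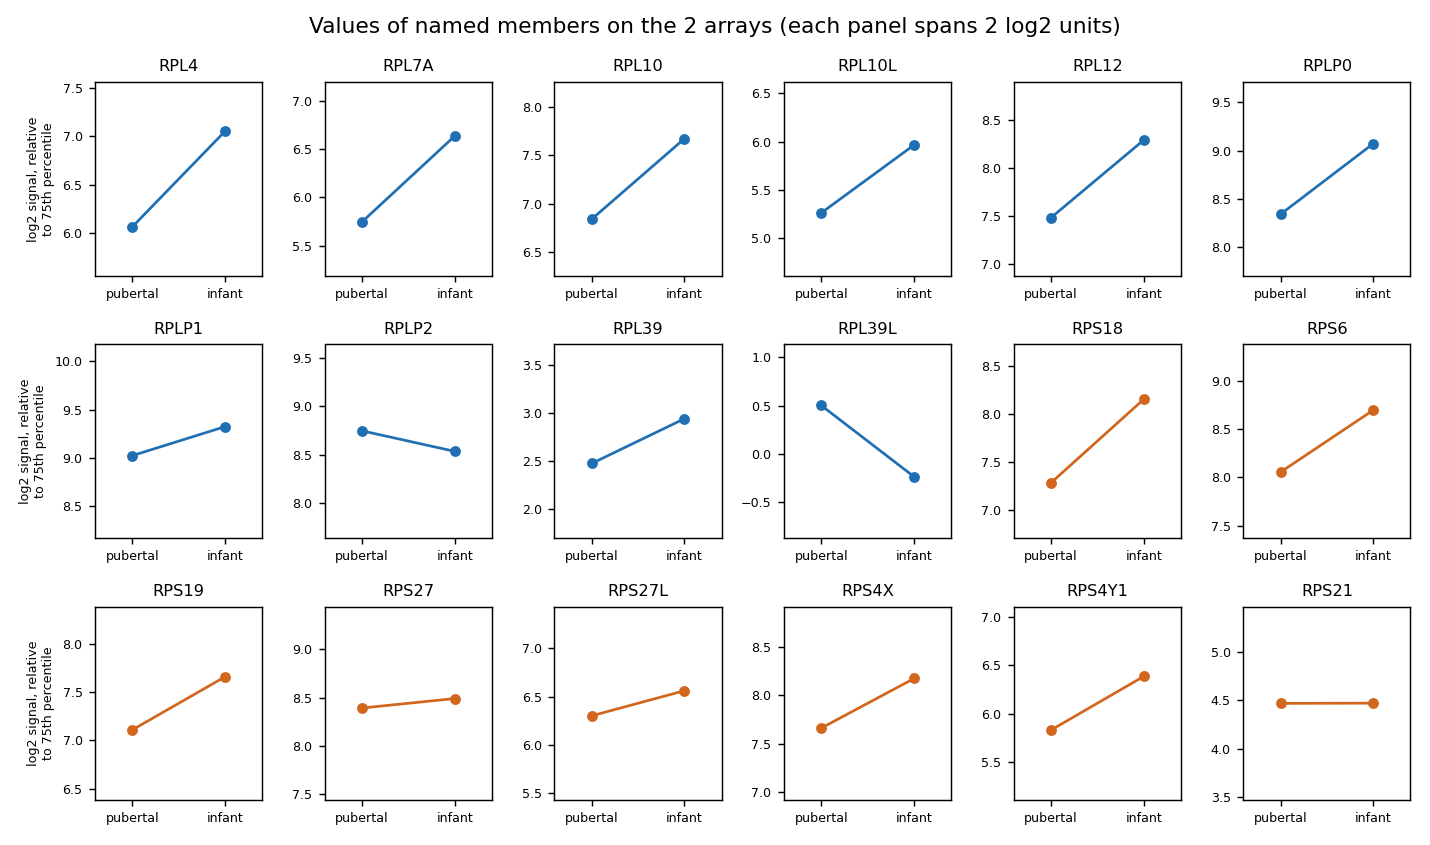
Values of 18 ribosomal protein genes on the pubertal array (left point) and the infant array (right point), as log2 signal scaled on the array's 75th percentile, with large subunit genes in blue and small subunit genes in orange. Each panel spans 2 log2 units and there is 1 array per group, so the points have no replicate spread. Lines climb to the infant side for most genes, stay level for RPS21 (4.47 on both arrays) and drop for RPL39L (0.50 pubertal, -0.24 infant) and RPLP2. Adding 0.94 to the pubertal points, as on the spike-in scale, would turn over the climbing lines of the genes shown except RPL4.

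The large subunit had a lower median than the small subunit, but the gap depended on how probes were combined. The 48 large subunit genes had a median of -0.59, with 46 below 0 and 25 (52.1%) at least 1.5-fold lower. The 33 small subunit genes had a median of -0.45, with 33 below 0 and 6 (18.2%) at least 1.5-fold lower. Of all genes, 54.2% were below 0 and 16.8% at least 1.5-fold lower, so the small subunit share at 1.5-fold lay near that of all genes. The difference between the medians, -0.15, does not change with a common scaling factor. It shrank to -0.037 with the brightest probe of each gene, to -0.040 with the median of its probes, to -0.053 with probes designed to RefSeq transcripts alone, and to -0.054 with normexp background correction. The ranges overlapped widely, at -0.99 to 0.74 for the large and -0.87 to -0.00 for the small subunit. The subunits are therefore not separated by these arrays.

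Paralogues allow a look at copies of one protein that differ in where they are used. Whether a probe can tell a copy from its parent gene depends on the probe sequences, so those that overlap are shown here from the deposited array files. Capitals mark the bases that a probe shares with its partner in the best ungapped overlap. The first pair is RPL10L and a probe of RPL10, where 33 of 36 overlapping bases match, with a run of 23.
RPL10L: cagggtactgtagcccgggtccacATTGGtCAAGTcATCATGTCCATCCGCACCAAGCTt
RPL10: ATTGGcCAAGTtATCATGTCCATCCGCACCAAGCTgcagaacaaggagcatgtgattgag
The next pair is RPS27L and a probe of RPS27, where 42 of 54 overlapping bases match and the longest run is 11.
RPS27L: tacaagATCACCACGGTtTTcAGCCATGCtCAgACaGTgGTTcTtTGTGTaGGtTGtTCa
RPS27: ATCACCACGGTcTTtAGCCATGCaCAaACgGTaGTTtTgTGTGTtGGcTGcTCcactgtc
The last pair is RPL26L1, a copy that the naming rule leaves out and that was chosen after its values were seen, and a probe of RPL26 at the same place, where 51 of 60 bases match.
RPL26L1: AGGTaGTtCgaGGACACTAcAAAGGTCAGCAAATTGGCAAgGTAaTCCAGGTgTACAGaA
RPL26: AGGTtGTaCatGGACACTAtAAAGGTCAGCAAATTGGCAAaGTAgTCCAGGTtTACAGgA
The RPL10L and RPL10 probes thus differ at only 3 overlapping bases.

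RPL10L, an intronless copy of the X-linked RPL10 that in mice takes over in male germ cells during meiosis, measured 5.26 in the pubertal and 5.97 in the infant culture. Its difference of -0.70 ± 0.20 lay near that of the RPL10 probe printed beside it (-0.91 ± 0.20). In that stretch RPL10L cannot be told apart from RPL10 with certainty. RPL10 itself had 6 probes on the array, and 4 of them were well above background on both arrays, with differences between -0.96 and -0.61. RPS27L, a copy of RPS27 known as a p53 target, measured 6.30 in pubertal and 6.56 in infant cells (-0.26 ± 0.20). The overlapping RPS27 probe gave -0.25 ± 0.20. The other RPS27 probe gave 0.05 ± 0.20, so copy and parent did not differ beyond the error. The RPL26L1 probe printed above had 3743 units in pubertal and 3749 units in infant cells (-0.09 ± 0.20), while the RPL26 probe had 75522 units in pubertal and 108149 units in infant cells (-0.61 ± 0.20). The other RPL26L1 probes gave -0.36 and 0.41, so the readings of this copy varied among its probes, and the lowest was within the errors of RPL26.

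RPL39L, the testis-enriched copy of RPL39, was the 1 ribosomal protein gene at least 1.5-fold higher in the pubertal culture. Its single probe had 575.5 units in the pubertal and 324.4 units in the infant culture, a difference of 0.74 ± 0.21 that lay between 0.58 and 1.68 under every alternative run for it. RPL39, a short protein that lines the exit tunnel, measured 2.48 in pubertal and 2.94 in infant cells. Its probes gave -0.64 and -0.29. The RPL39L probe shares no run over 6 bases with the RPL39 probes. Only probes were compared, and whether the RPL39L probe also binds RPL39 messenger RNA was not tested. Germ cell markers had a higher summed signal in the pubertal culture, as given above, and their part in the RPL39L difference was not tested.

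RPL3L, the copy of RPL3 used in skeletal and heart muscle, was the 1 member not measured on both arrays. Its probe had 23.6 units in the pubertal culture, not well above background, and 46.3 units in the infant culture. The measured difference was -1.06 ± 0.41 (2.09-fold lower in the pubertal culture), a point value and not a bound. Striated muscle markers were measured on both arrays for 9 of 13 genes, 3 of them 2-fold or more higher and 2 of them 2-fold or more lower, with a summed signal of 9398 units in the pubertal and 8207 units in the infant culture. RPL3, a protein near the peptidyl transferase centre, measured 7.96 in pubertal and 8.41 in infant cells (-0.45 ± 0.12). RPS4X and RPS4Y1, the X-linked and Y-linked genes of the same small subunit protein, moved alike. RPS4X measured 7.66 in pubertal and 8.18 in infant cells (-0.51 ± 0.20), and RPS4Y1 5.83 in pubertal and 6.39 in infant cells (-0.56 ± 0.20). Their probes share no run over 5 bases, and whether either binds the other gene's messenger RNA was not tested.

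Probes of the same gene mostly went the same way. Of the 214 probes, 195 were well above background on both arrays, 12 on neither, 1 in the pubertal culture alone and 6 in the infant culture alone. Of the 195, 186 had a difference below 0 and 9 above 0. In the 54 genes with several such probes, every gene's mean was below 0, and in 47 of them every single probe was below 0. Of 4713 other genes with several such probes, 1846 had every probe below 0. The median SD between probes of a gene was 0.18 for these 54 genes and 0.21 for 4713 other genes. The lower pubertal signal was thus spread over the probes of the set.

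Probes of opposite sign occurred in 7 of the 54 genes, and probes over 1 log2 apart in 4. Among the 4713 other genes, 1480 had probes of opposite sign and 567 had probes over 1 log2 apart. RPL13, a large subunit protein, had both. Its lowest probe had 4521 units in the pubertal and 17256 units in the infant culture (-2.02), while its highest probe had 235489 units in pubertal and 207814 units in infant cells (0.09). The other RPL13 probes gave -0.67 and -0.32, the second of them the brightest, so the gene mean of -0.73 rests on 1 probe for much of its size. RPS2, another protein of the messenger RNA entry, spread from -0.85 to 0.65, and the high probe was dim, with 61.8 units in pubertal and 37.0 units in infant cells. RPL24, a protein of a bridge between the subunits, had a dim probe at -1.35 and a bright probe at -0.21. In RPS7, RPS9, RPS21, RPS23 and RPS27 the highest probe lay between 0.01 and 0.22 and the lowest between -0.61 and -0.17. RPS23 lies in the decoding centre, and RPS7 helps to mature the small subunit's RNA. In RPS7, RPS9, RPS21 and RPS27 the probe above 0 was the gene's dimmest, and in RPS23 it was the middle one of 3.

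RPL21, a large subunit protein, was read by 14 probes, the most of any member, with differences between -1.76 and -0.12. All but 3 lay between -0.72 and -0.38, with 1 at -0.12 and a pair apart at -1.76 and -1.62. The probe at -1.62 had 4232 units in pubertal and 12242 units in infant cells, and it is printed here because it shares a run of 29 bases with a probe that read 28200 units in pubertal and 38367 units in infant cells (-0.53). Capitals mark the shared run.
RPL21, probe at -1.62: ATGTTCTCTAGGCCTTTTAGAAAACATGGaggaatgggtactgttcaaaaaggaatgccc
RPL21, probe at -0.53: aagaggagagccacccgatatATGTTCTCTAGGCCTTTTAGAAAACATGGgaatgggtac
After the run the probes differ by a short gap and then share sequence again. RPL21 has many pseudogene copies in primates, and the transcripts behind each probe cannot be told apart here. RPL21 was also the 1 of 82 names that had no entry in the macaque gene tables used.

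**Figure D3:**
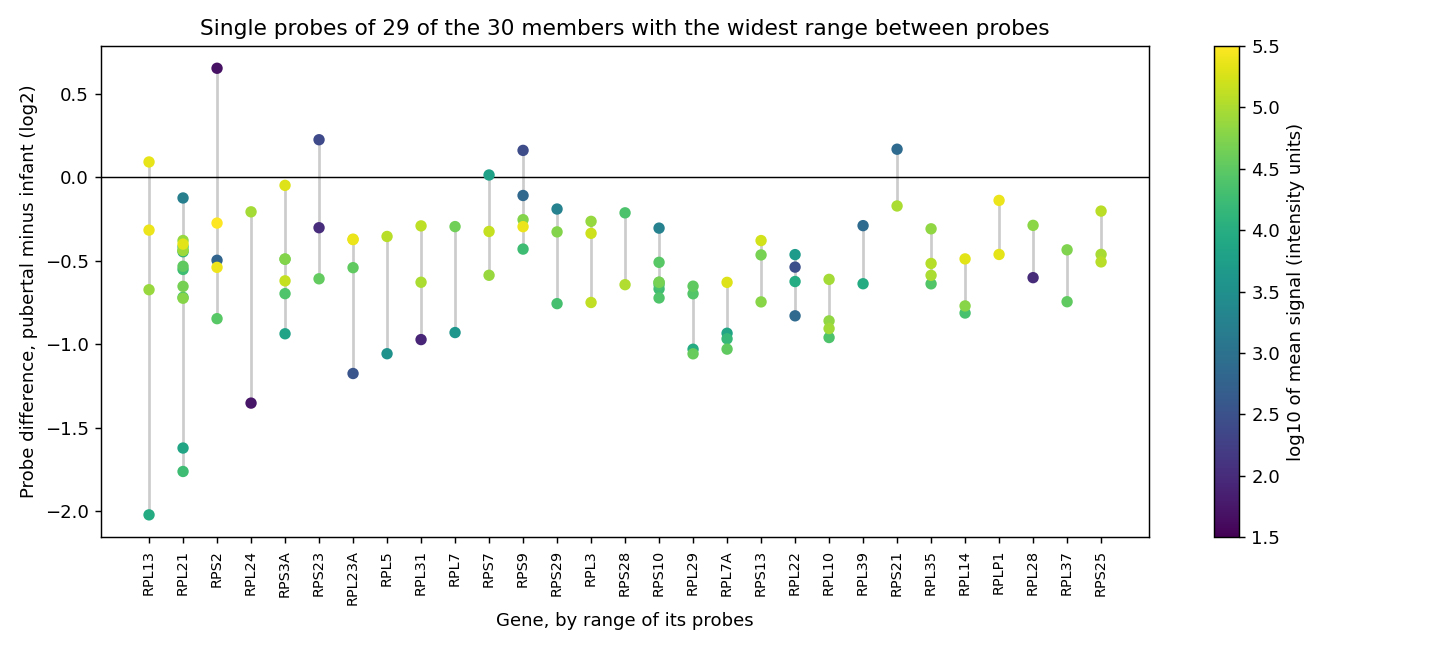
Differences of single probes (log2, vertical axis) for 29 of the 30 ribosomal protein genes with the widest range between their probes, coloured by the probe's mean signal on both arrays (log10 intensity units), with grey lines joining probes of a gene. Most probes lie below 0 at every brightness. RPL13 and RPL21 hold the lowest probes (-2.02 and -1.76), and RPS2 the highest (0.65), a dim one.

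The difference between ribosomal protein probes and other probes was present at every signal strength. Signals of the measured member probes ran from 34.9 to 307974 units in the pubertal culture and from 37.0 to 350249 units in the infant culture, with medians of 48618 units pubertal and 63099 units infant. Below 1000 units, 17 member probes had a median of -0.30, and other gene probes -0.02. Between 1000 and 10000 units, 16 member probes had a median of -0.67, and other probes -0.10. Between 10000 and 30000 units the medians were -0.67 over 35 member probes and -0.19 over the other probes. Between 30000 and 100000 units they were -0.53 over 72 member probes and -0.27 over the other probes. Above 100000 units they were -0.40 over 55 member probes and -0.06 over 88 other probes. Other probes between 10000 and 100000 units thus also leaned lower in the pubertal culture, most of all between 30000 and 100000 units. Above 100000 units their median was close to that of all genes (-0.06). The members lay lower than the other probes in each band. Across the 195 member probes, the difference had r = 0.03 with log2 signal and r = 0.05 with GC content. These probes share arrays and in part genes, so the correlations are descriptions.

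**Figure D4:**
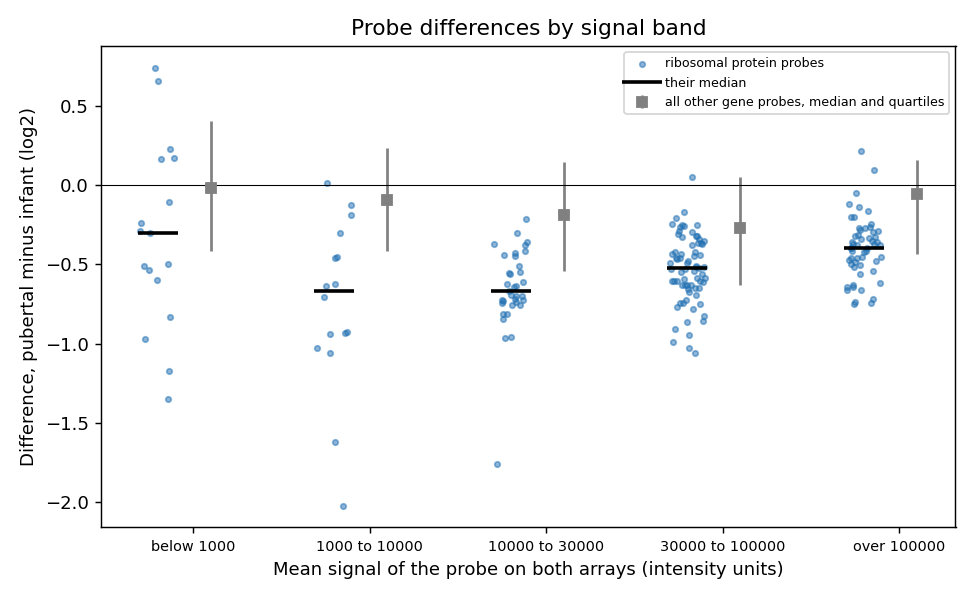
Differences of the 195 member probes (blue points, log2, vertical axis) in 5 bands of mean signal (horizontal axis, intensity units), with the members' median as a black line and the median and quartiles of all other gene probes in grey. The black line lies below the grey square in every band, by the least between 30000 and 100000 units (-0.53 against -0.27) among the bands. Values are scaled on each array's 75th percentile.

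The genes that work with the ribosome were partly lower too. Of all genes, 54.2% were below 0 and 16.8% at least 1.5-fold lower. Of 14 elongation and termination genes measured, 12 (85.7%) were below 0 and 7 (50%) at least 1.5-fold lower, with a median of -0.60. EEF2, the translocase of the ribosome, measured 3.53 in pubertal and 4.57 in infant cells (-1.04 ± 0.20), and EEF2K, the kinase that inhibits it, gave -1.07 ± 0.22 from a dim probe with 80.3 units in pubertal and 158.4 units in infant cells. With no filter on dim probes EEF2K became -0.49. EEF1B2, which recharges the factor that delivers aminoacyl-tRNA, gave -0.85 ± 0.14. Of 23 initiation genes, 21 (91.3%) were below 0 and 8 (34.8%) at least 1.5-fold lower, with a median of -0.41. No EIF3 subunit was found under the names searched, so the initiation list lacks that complex. EIF5, which triggers GTP hydrolysis on the start codon complex, gave -1.20 ± 0.15 (-0.76 with no filter on dim probes), the helicase EIF4A1 -1.08 ± 0.10 and EIF2B1, a subunit of the exchange factor for EIF2, -1.04 ± 0.20. All of these values are relative to the 75th percentile, and on the spike-in scale the list medians become 0.34 and 0.53.

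Ribosome assembly and its transcription machinery differed less from the rest. Of 82 biogenesis genes measured, 63 (76.8%) were below 0, where 54.2% of all genes were, with a median of -0.30. At least 1.5-fold lower were 13 (15.9%), near the 16.8% of all genes. The lowest was NMD3, the export adaptor of the large subunit, at -1.21, but its probes ran from -3.32 to 0.15. The histone chaperone family member NPM3 gave -1.19 and the small subunit assembly factor WDR43 -1.03. The 13 genes of RNA polymerase I and its factors, which make the ribosomal RNA, had a median of -0.06, equal to that of all genes. None of them was 1.5-fold lower, and the largest differences were 0.64 for TAF1A, -0.52 for POLR1D and 0.38 for ZNRD1. Without disturbed areas of the slide POLR1D became -0.96. Of 18 genes that regulate ribosome production, 11 (61.1%) were below 0, near the 54.2% of all genes. At least 1.5-fold lower were 5 (27.8%), against 16.8% of all genes, and the median was -0.16. DDIT4, an inhibitor of mTORC1, measured 2.45 in pubertal and 3.92 in infant cells (-1.48 ± 0.20). MAF1, a repressor of RNA polymerase III, gave -0.95 ± 0.20 and MDM2 -0.92 ± 0.22. The oncogenes MYC and MYCN, chosen after their values were seen, had means of -0.66 ± 0.15 and 0.78 ± 0.15. The MYC probes disagreed in sign, at -1.69 and 0.37, so the MYC mean stands for neither of them.

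Related ribosomal proteins outside the naming rule mostly followed the set. RPS27A, a member made as a fusion with ubiquitin, gave -0.47, and FAU, a small subunit protein fused to a ubiquitin-like domain, gave -0.31. Of 7 paralogues of members, a list that also holds RPS27L, all were below 0 relative to the 75th percentile, where 54.2% of all genes were. RPL26L1 was within its error of 0 (-0.01 ± 0.12). The list median of -0.49 becomes 0.45 on the spike-in scale. The lowest was RPL22L1, the copy of RPL22, which measured 6.18 in pubertal and 7.27 in infant cells (-1.09 ± 0.20), followed by RPL7L1 at -0.73 and RPLP0-like at -0.60. RPL22 itself gave -0.61 ± 0.10 over 4 probes, a value looked up after that of RPL22L1 was seen. The mitochondrial ribosomal proteins, encoded in the nucleus and built into a separate ribosome, were lower by less. Of 73 measured, 64 (87.7%) were below 0, where 54.2% of all genes were, with a median of -0.34. At least 1.5-fold lower were 13 (17.8%), near the 16.8% of all genes. MRPL54 gave -1.56, MRPS11 -1.20 and MRPS30 -1.04. MRPL54 was dim, with 34.1 units in pubertal and 94.5 units in infant cells, and became -0.79 with normexp. With no filter on dim probes MRPS11 became -0.76 and MRPS30 -0.49.

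**Figure D5:**
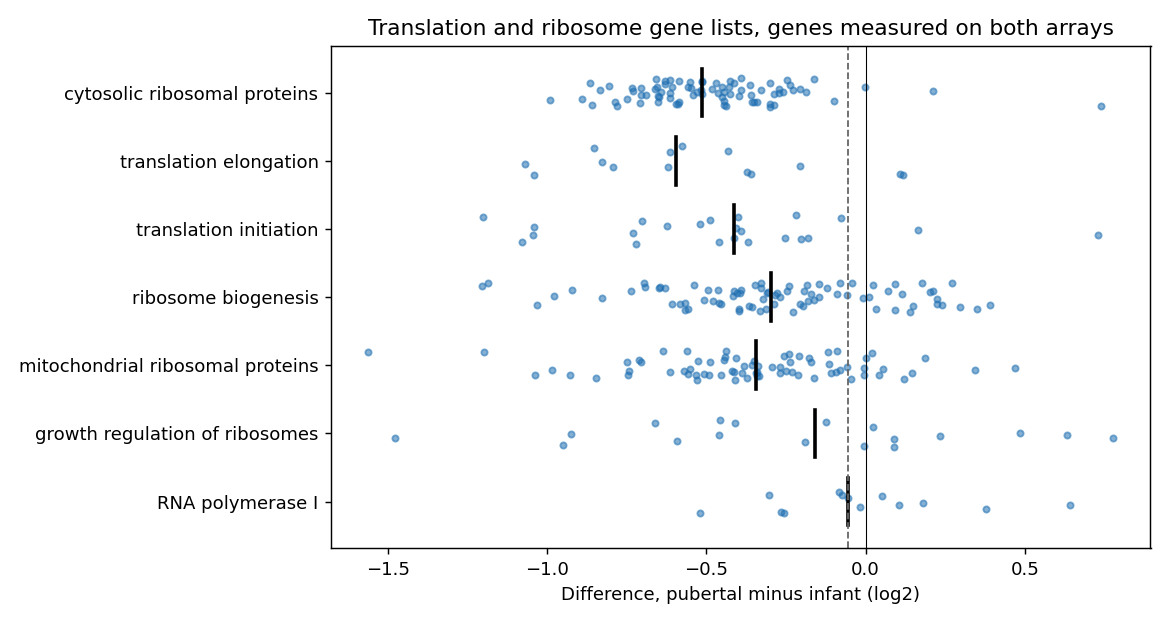
Differences between the pubertal and the infant array (log2, horizontal axis) of single genes in 7 lists (rows), with each list's median as a black bar and the median of all genes (-0.06) as a dashed line. The cytosolic ribosomal proteins form the tightest row (SD 0.25) around -0.51, the elongation list lies at -0.60, and the RNA polymerase I list lies on the dashed line. On the spike-in scale all points move 0.94 to the right.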

How the data were processed

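RNA from 1 pubertal and 1 infant Sertoli cell culture was hybridised to 2 arrays of 1 slide, read in 1 scan, per the file headers. Spot intensity values were deposited as Agilent Feature Extraction 10.5.1.1 wrote them, a version that the submitters' processing notes name too. Background subtraction and a spatial detrend within each array made the authors' processed intensity, per the file headers, and no scaling between arrays is recorded. Deposited flags for outlier, saturated and background spots were used as given. The design is annotated on the human build hg18, per the file headers, and probe positions were not used.

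Of 52857 spots per array, 51538 were gene spots. Outlier spots (96 pubertal, 91 infant) were left out. The log2 of the processed intensity was taken and the array's 75th percentile over gene spots subtracted. Spots of one probe were averaged, and detection asked for the well-above-background flag on 50% or more of a probe's spots. Spots of 78 replicated probes varied with a median SD of 0.09 pubertal and 0.08 infant, and that spread served as the tolerance for set medians under the alternatives. The number of arrays limits the precision, and no test between groups was made. The fold difference of RPL3L was taken against its own pubertal signal, which lay above the lowest detected one.

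Genes named in the text are the 6 lowest and 6 highest members, the paralogues with their parents, the stalk proteins and RPSA, 8 members with other known roles, the member on 1 array, members whose probes disagreed, and up to 3 genes of each list. Others are marked as chosen later. The members, lists and alternatives were chosen with earlier results of these data known. Gene names are those of the design, and 81 of 82 occur in macaque gene tables. Alternatives were normexp with an offset of 50, loess with a span of 0.3, quantile, median and spike-in scaling, other probe filters and other rules for combining probes. After the data were seen, RefSeq-designed probes alone and leaving out probes above 100000 units were added. Spike-in scaling used 8 of 10 control probes, whose raw log2 signals were lower on the pubertal array by a mean difference of -0.85. Single control probes ran from -1.14 to -0.47. Python 3.11.15, pandas 2.3.3, numpy 2.4.6, R 4.3.3 and limma 3.58.1 were used, and the functions were tested on simulated data. A few results of single genes are not reported here, although their values are kept in the counts and medians.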

Additional observations from a re-analysis of the deposited data

How the results depend on the processing

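The median of -0.51 stayed below 0 under every alternative run except spike-in scaling. It was -0.67 with median scaling, -0.42 with the brightest probe, -0.27 with loess, -0.20 with quantile normalization and 0.43 with spike-in scaling, and moved by less than the spread of replicate spots under the others. Median scaling moves the median of all genes to -0.22 and spike-in scaling to 0.88. Quantile normalization left 67 members below 0 and loess 71. The count of members at least 1.5-fold lower, 31, became 51 with median scaling, 19 with the percentile over detected probes, 5 with loess, 4 with quantile normalization and 0 with spike-in scaling. The count at least 2-fold lower, 0, became 4 with median scaling and 1 with no filter on dim probes, with the weaker detection flag or with the brightest probe. The large minus small subunit median of -0.15 became -0.054 with normexp, -0.037 with the brightest probe, -0.040 with the median of probes and -0.053 with RefSeq-designed probes. Why these values move was not tested, beyond the common shift that median and spike-in scaling add by construction.

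Of 694 values of 58 named genes under the alternatives, 497 stayed within the error of the gene's difference, 177 moved by more, and 20 that had been at least 1.5-fold different changed sign. Spike-in scaling turned EEF1B2 to 0.087, MDM2 to 0.016, RPL10 to 0.10, RPL10L to 0.24, RPL11 to 0.34, RPL12 to 0.13, RPL13 to 0.21, RPL21 to 0.28, RPL24 to 0.16, RPL29 to 0.080, RPL32 to 0.28, RPL5 to 0.23, RPL7A to 0.049, RPL7L1 to 0.21, RPLP0 to 0.21, RPLP0-like to 0.34, RPS18 to 0.074, RPS3 to 0.29 and RPS6 to 0.30. The brightest probe turned NMD3 to 0.15. Disturbed areas of the slide held 833 spots, 4 of them of members. Without these spots RPL27A and RPL32 were not measured, and RPL7 gave -0.93. No paired analysis was possible because each group had 1 array. With 1 array per group, no spread between cultures or animals is known, and human probes on monkey RNA read each transcript with an unknown efficiency.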

Other observations

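Genes named as ribosomal protein pseudogenes are left out by the naming rule and were chosen here after their values were seen. Apart from RPL13AP3, those measured on both arrays had differences from -1.41 to -0.08. RPLP0P2 measured 8.49 in the pubertal and 9.21 in the infant culture (-0.72 ± 0.20), as RPLP0 did. RPSAP10 measured 4.04 in the pubertal and 5.44 in the infant culture (-1.41 ± 0.20), and RPL23AP64 0.38 in the pubertal and 1.41 in the infant culture (-1.03 ± 0.20), both below the lowest member. RPS15AP10 gave -0.08 ± 0.24. RPL13AP3 had a mean of 3.57 in the pubertal and 1.00 in the infant culture, a difference of 2.57, but its probes gave 5.83 and -0.69, so the mean stands for neither of them.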
